A study of Mus musculus with 6 samples.

Results

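Interferon-stimulated effector genes are the genes through which a cell carries out its antiviral state, and 41 of them, chosen by symbol, were followed in RNA of microglia from old mice. All 41 were present among the 14148 genes of the deposited table. The list holds IFIT and IFITM proteins, the ISG15 system, the oligoadenylate synthetase family, large GTPases, sensors of RNA and Z-form nucleic acid, enzymes of nucleotides and nucleic acids, ADP-ribosyltransferases, the chemokine gene Cxcl10 and several smaller classes. Microglia, the resident macrophages of the brain, had been taken from the hippocampi of male C57BL/6 mice aged 18 months and stained with BODIPY, a dye of neutral lipid. Live CD11b+CD45lo cells were sorted into a lipid droplet-high (LD-high, BODIPYhi) and a lipid droplet-low (LD-low, BODIPYlo) fraction, with 3 libraries of each. Each sample pooled the hippocampi of 3 mice, and the labels name no transgene or treatment in either group. The comparison asks how microglia rich in lipid droplets differ in their transcripts from microglia of old hippocampi that hold few.

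Type I interferons are secreted when a cell senses foreign or misplaced nucleic acid. They bind the receptor pair IFNAR1 and IFNAR2, which acts through the kinases JAK1 and TYK2 on a complex of transcription factors that binds the interferon-stimulated response element (ISRE) in the promoters of effector genes. In the brain, microglia both make and answer interferon, and a fraction of microglia with high effector gene expression has been described in aged mice.

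Values are normalized counts, that is, reads per gene divided by 1 size factor per library. A gene is said to have risen or fallen where its adjusted p was under 0.05 in a limma fit over all 11624 genes with at least 10 normalized counts in at least 3 libraries. Log2 changes are LD-high minus LD-low on log2(normalized count + 1), with the SE of the fit. For low genes they can be larger or smaller than those of the count tests edgeR and DESeq2. Oas3 had -2.16, against -1.84 with edgeR and -1.89 with DESeq2, and Oasl1 -0.57, against -0.65 and -0.64. The libraries held 15895576 to 36894483 reads in genes in the LD-high group and 23808102 to 38489448 in the LD-low group. In bulk RNA, fewer cells of a kind and less RNA per cell cannot be told apart. Nothing says that the pools hold different mice, so p-values may measure only the spread between these samples.

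The members that fell were Rsad2, Ifitm3 and Oas3, and each has an ISRE core in its promoter, as has Ifit1, the member next in order of p. The ISRE core was searched as GAAANNGAAA on either strand, which reads TTTCNNTTTC where it lies on the other strand. The core occurred in 16 of the 30 members with a promoter sequence (53.3%), among them Ifih1, with a log2 change of 0.33. Only members that hold a core were chosen for display. The windows below show where it lies in the promoters of Rsad2, Ifitm3, Oas3 and Ifit1. They run from 150 bases before to 30 bases after the start that RefSeq gives for GRCm38.p6, 5′ to 3′ on the strand of the gene, with the cores in capitals. Each window matched the mm9 genome at 1 place: chr12:27141288-27141467 on the minus strand for Rsad2, chr7:148196614-148196793 on the minus strand for Ifitm3, chr5:121227639-121227818 on the minus strand for Oas3 and chr19:34715229-34715408 on the plus strand for Ifit1.
Rsad2: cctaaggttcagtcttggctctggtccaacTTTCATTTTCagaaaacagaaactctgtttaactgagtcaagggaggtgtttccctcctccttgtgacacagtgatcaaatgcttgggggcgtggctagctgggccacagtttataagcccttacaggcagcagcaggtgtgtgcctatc
Ifitm3: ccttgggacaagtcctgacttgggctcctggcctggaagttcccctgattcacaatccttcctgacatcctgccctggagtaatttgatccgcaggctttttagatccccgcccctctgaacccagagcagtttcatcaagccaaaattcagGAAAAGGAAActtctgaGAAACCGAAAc
Oas3: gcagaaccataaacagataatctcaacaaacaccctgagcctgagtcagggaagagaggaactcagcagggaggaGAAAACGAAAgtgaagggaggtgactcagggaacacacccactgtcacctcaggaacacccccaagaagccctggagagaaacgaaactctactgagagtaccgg
Ifit1: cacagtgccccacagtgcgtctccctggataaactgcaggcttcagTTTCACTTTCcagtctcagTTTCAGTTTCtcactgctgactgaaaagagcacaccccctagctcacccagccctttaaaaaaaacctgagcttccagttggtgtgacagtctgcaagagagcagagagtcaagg

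In Rsad2 the core spans -120 to -111 relative to the start and in Oas3 -75 to -66. Ifit1 has 2 cores, at -104 to -95 and at -85 to -76. In Ifitm3 both cores lie just after the start, at 3 to 12 and at 20 to 29.

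Of the 41 effector genes, 3 fell in LD-high microglia, 0 rose and 38 did not pass. That is 7.32% of the members lower, against 1.82% of all genes tested, and 0 members higher, against 1.53% of all genes. At an unadjusted p under 0.05, limma gave 14 members lower and 1 higher, where 10.1% of all genes were lower and 9.68% higher. By adjusted p, edgeR's quasi-likelihood test called 2 members lower and 0 higher, against 1.81% and 1.44% of all genes. DESeq2 called 4 members lower and 1 higher, against 2.97% and 3.27% of all genes. Log2 changes lay below 0 for 34 members (82.9%), against 51.3% of all genes tested. That share depends on level, and was 66.6% for all genes with a mean under 100 and 60% for those from 100 to 300. The median log2 change over the 41 members was -0.16, against -0.01 over all genes tested. In 11 members (26.8%) every LD-high value lay below every LD-low value, against 11.7% of all genes. Ifih1 was the 1 member (2.44%) with every LD-high value above every LD-low value, against 12.7% of all genes. All 41 members passed the filter, but Ifi44 did so through its LD-low values alone, and Oas3 reached 10 normalized counts in 3 LD-low libraries and in 1 LD-high library. The count of 3 depended on single libraries: it was 0 when LD-low replicate 2 was left out, 0 when LD-low replicate 3 was and 1 when LD-high replicate 2 was. It was between 2 and 4 with any other library left out. The count over all genes, 390 with all 6 libraries, was then 82, 52 and 201 in the first 3 of these fits. Without a mean-variance trend in limma it was 0, where 15 of all genes were called.

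**Figure D1:**
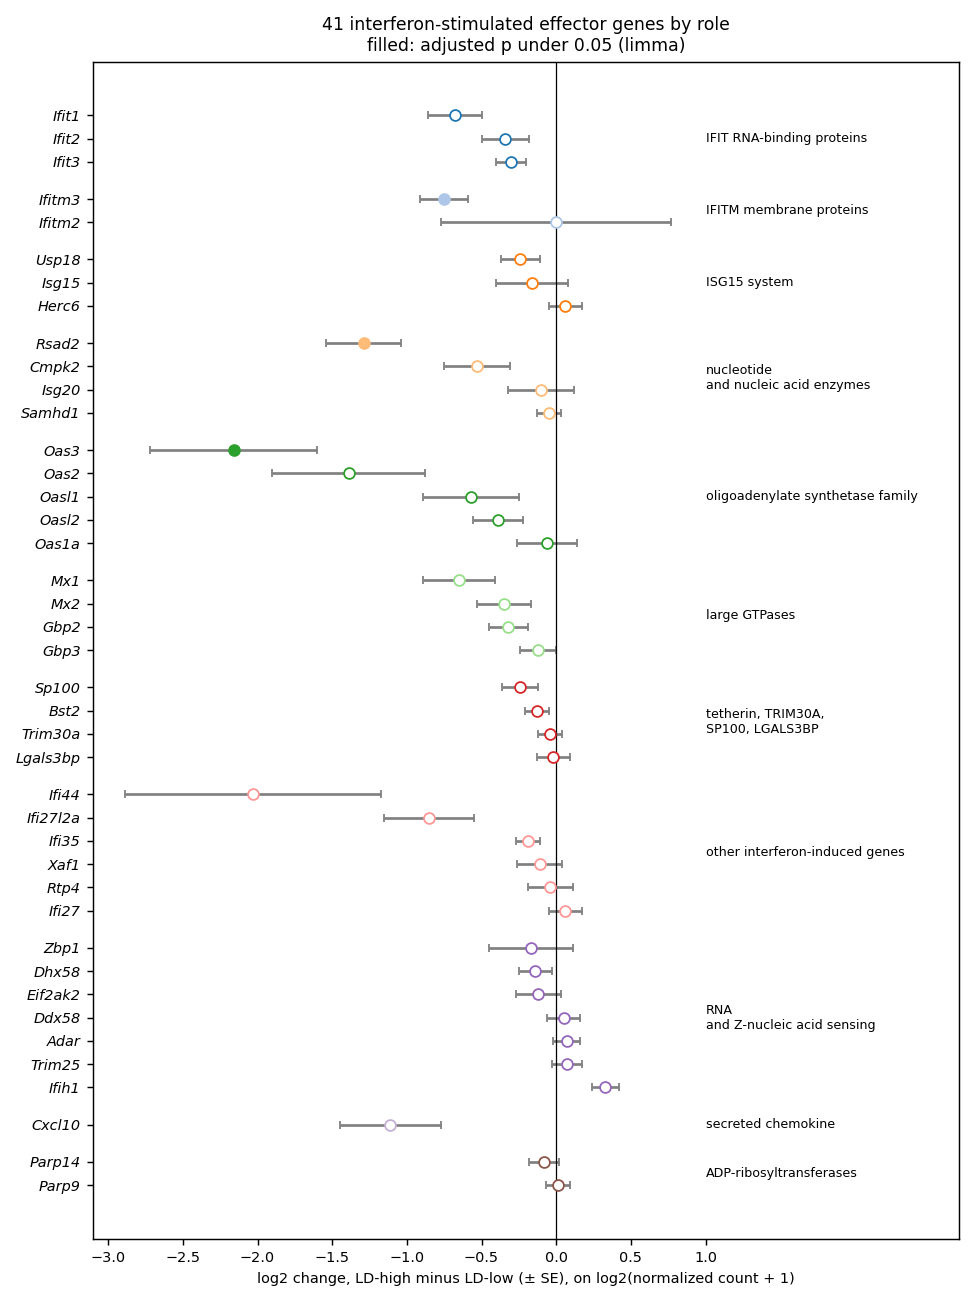
Log2 change, LD-high minus LD-low, with its SE for each of the 41 effector genes, ordered by role (n = 3 libraries per group). Filled points mark adjusted p under 0.05 (limma): Rsad2, Ifitm3 and Oas3, all left of 0, while the RNA sensors and the ADP-ribosyltransferases sit close to 0 or, for Ifih1, to the right of it.

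Among enzymes that act on nucleotides and nucleic acids, Rsad2 encodes viperin, which makes a chain-terminating nucleotide that stops viral polymerases. Rsad2 (mm9 chromosome 12, 27127618 to 27141317, minus strand) had 41, 66.1 and 56.8 normalized counts in LD-high libraries 1, 2 and 3, against 117, 127 and 155 in LD-low libraries. The groups did not overlap, and the LD-high mean of 54.6 ± 12.7 was 41.1% of the LD-low mean of 133 ± 19.7 (SD, n = 3 each). It fell by 1.29 ± 0.25 on the log2 scale (limma adjusted p 0.0157), and the adjusted p was 0.0631 when LD-low replicate 2 was left out and 0.102 when LD-low replicate 3 was. Behind these values stand 34 to 59 reads per LD-high library and 117 to 167 per LD-low library. Cmpk2, the neighbour of Rsad2 on chromosome 12, encodes a mitochondrial kinase that phosphorylates cytidine and uridine monophosphates. Cmpk2 had 90.9, 141 and 91.8 normalized counts in LD-high libraries, against 161, 169 and 131 in LD-low libraries. The groups overlapped, since LD-high replicate 2 lay above LD-low replicate 3, and the log2 change was -0.53 ± 0.22 (limma adjusted p 0.194). Samhd1, which breaks down deoxynucleotides, was the highest of the class, with 1266, 1221 and 1406 normalized counts in LD-high libraries and 1303, 1362 and 1357 in LD-low libraries. Its log2 change was -0.05 ± 0.08, and that of the exonuclease gene Isg20 was -0.10 ± 0.22.

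IFITM proteins sit in endosomal and plasma membranes and hinder the fusion of incoming virus particles. Ifitm3 (mm9 chromosome 7, 148195485 to 148196669, minus strand) had 194, 156 and 152 normalized counts in LD-high libraries, against 252, 293 and 298 in LD-low libraries. The highest LD-high value lay well under the lowest LD-low value, with means of 167 ± 23.5 and 281 ± 25.4 (SD, n = 3 each). Ifitm3 fell by 0.75 ± 0.16 (limma adjusted p 0.0250), and the change lay between -0.86 and -0.69 with any 1 library left out. It was called without LD-high replicate 1 or LD-low replicate 1, and the adjusted p lay between 0.0631 and 0.119 in the fits that lacked replicate 2 or 3 of either group. Ifitm2, its close relative, held 5 to 18 reads per LD-high library and 2 to 24 per LD-low library, and its log2 change of 0.00 ± 0.77 carries little information.

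The oligoadenylate synthetases make the 2′-5′ oligoadenylates that switch on RNase L when they meet double-stranded RNA. Oas3 (mm9 chromosome 5, 121203107 to 121227670, minus strand) had 26.1, 6.72 and 5.01 normalized counts in LD-high libraries, against 66.0, 29.2 and 53.9 in LD-low libraries. LD-high replicate 1 came within a few counts of LD-low replicate 2, and the groups did not overlap. Oas3 fell by 2.16 ± 0.56 (limma adjusted p 0.0494). The call rests on 35, 6 and 3 reads in LD-high libraries and 94, 27 and 58 in LD-low libraries, and it was kept in 1 of 6 fits without 1 library, that without LD-high replicate 1. The adjusted p was between 0.0899 and 0.186 in the other 5, 0.0748 with edgeR and 0.0240 with DESeq2. The call also ended with a pseudocount of 0.5 (adjusted p 0.0522), quantile normalization (0.0926) and TMM factors (just above the threshold). Oas2, the adjacent gene, had 12.7, 17.9 and 80.1 normalized counts in LD-high libraries, against 61.0, 75.8 and 78.0 in LD-low libraries. LD-high replicates 1 and 2 lay under all LD-low values and LD-high replicate 3 over all of them, so the log2 change of -1.39 ± 0.51 did not pass (limma adjusted p 0.145). It rests on 16 to 48 reads per LD-high library and 70 to 87 per LD-low library. Without LD-high replicate 3 it was -2.17, and Oas2 was then called (limma adjusted p 0.0179).

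The 5 members of the oligoadenylate synthetase family had log2 changes between -2.16 and -0.06, with a median of -0.57 and 1 called. Oasl2, whose product resembles the synthetases and carries ubiquitin-like domains, had the highest values of the family. It had 234, 295 and 316 normalized counts in LD-high libraries, against 402, 424 and 286 in LD-low libraries. LD-low replicate 3 lay inside the LD-high range, and the log2 change was -0.39 ± 0.17 (limma adjusted p 0.215). Oas1a, one of several near-identical mouse copies whose reads may be divided between them, had a log2 change of -0.06 ± 0.20, and Oasl1 one of -0.57 ± 0.32.

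**Figure D2:**
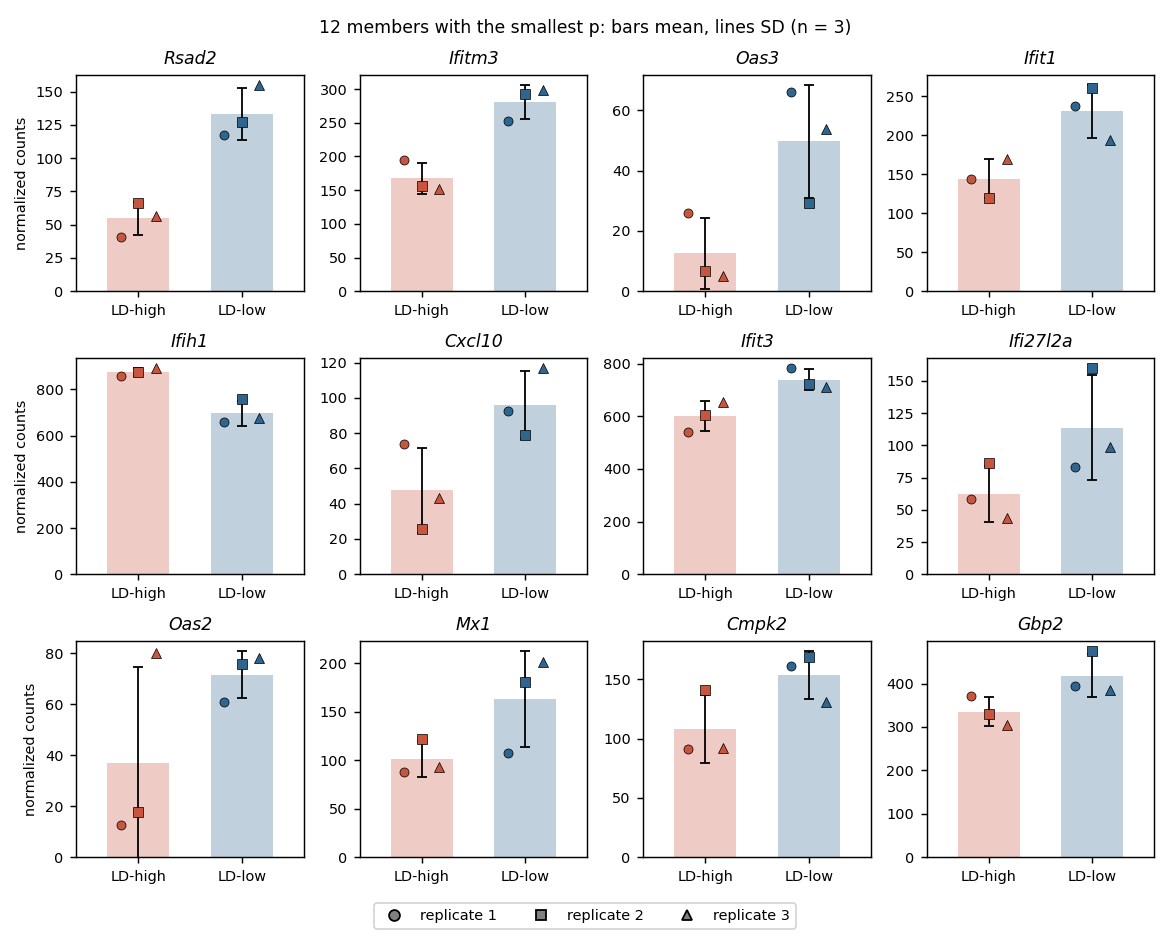
Normalized counts per library for the 12 effector genes with the smallest p, LD-high to the left of LD-low; bars are means, lines SD (n = 3 each) and marker shapes replicate numbers, and each axis starts at 0, so that the lower end of the Oas2 line is not shown. For Rsad2, Ifitm3, Oas3, Ifit1, Cxcl10, Ifit3 and Gbp2 all LD-high points lie below all LD-low points, for Ifih1 all lie above, and for Oas2 LD-high replicate 3 stands at 80.1 beside 12.7 and 17.9.

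IFIT proteins bind viral RNA that lacks the cap marks of host messengers. Ifit1 (mm9 chromosome 19, 34715361 to 34724499, plus strand) had 144, 119 and 169 normalized counts in LD-high libraries, against 237, 261 and 194 in LD-low libraries. The groups did not overlap, and the log2 change of -0.68 ± 0.18 came close to the threshold (limma adjusted p 0.0555). DESeq2 called it (adjusted p 0.0200) and edgeR did not (adjusted p 0.0523). Ifit3 had 541, 606 and 654 normalized counts in LD-high libraries, against 784, 721 and 712 in LD-low libraries. Here too the groups did not overlap, with a smaller log2 change of -0.30 ± 0.10 (limma adjusted p 0.127). Ifit2 had a log2 change of -0.34 ± 0.16 with overlapping groups, so that all 3 IFIT genes had values below 0. Of these, 2 had an unadjusted p under 0.05, where 10.1% of all genes were lower, and none passed limma. Ifit3 has a close copy in the mouse genome, and its reads may be divided between both.

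Cxcl10 encodes a secreted chemokine that draws CXCR3-bearing T cells. It had 73.7, 25.8 and 43.4 normalized counts in LD-high libraries, against 92.6, 79.0 and 117 in LD-low libraries. The groups did not overlap, while the spread within the LD-high group was large, and the log2 change of -1.11 ± 0.34 did not pass (limma adjusted p 0.0878). Without LD-high replicate 1 it was -1.48 and passed (limma adjusted p 0.0338). Its exons overlap those of Art3 on the opposite strand, from which the library type cannot separate it, and Art3 was counted at 6.72 to 15.0 normalized counts in LD-high libraries and 6.50 to 12.1 in LD-low libraries.

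The large GTPases include the Mx proteins, which trap viral nucleocapsids, and the guanylate-binding proteins, which attack the vacuoles of intracellular microbes. Mx1 had 87.9, 122 and 93.5 normalized counts in LD-high libraries, against 107, 181 and 201 in LD-low libraries. LD-low replicate 1 lay inside the LD-high range, and the log2 change was -0.65 ± 0.24 (limma adjusted p 0.159); without that library Mx1 was called (adjusted p 0.0418). In C57BL/6 mice both Mx genes are known to carry mutations that disrupt the protein. Gbp2 had 371, 331 and 304 normalized counts in LD-high libraries and 394, 475 and 385 in LD-low libraries, without overlap but with a log2 change of only -0.32 ± 0.13 (limma adjusted p 0.205). Gbp3, the highest of the 4, had 750, 866 and 776 in LD-high libraries and 757, 1043 and 819 in LD-low libraries, which overlapped (log2 change -0.12 ± 0.12). Mx2 had a log2 change of -0.35 ± 0.18, and the median of the 4 GTPases was -0.33. Limma, edgeR and DESeq2 called none of them, and 2 were lower at an unadjusted p under 0.05, against 10.1% of all genes.

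The 7 sensors of RNA and Z-form nucleic acid and their partners had a median log2 change of 0.05, with values from -0.17 to 0.33. None passed limma, 1 (Ifih1) had an unadjusted p under 0.05, edgeR called none and DESeq2 called Ifih1. Over all genes, 9.68% were higher at that unadjusted p, and DESeq2 called 3.27% higher. Ifih1, which encodes MDA5, the cytosolic sensor of long double-stranded RNA, had 858, 876 and 893 normalized counts in LD-high libraries, against 657, 757 and 675 in LD-low libraries. Every LD-high value was above every LD-low value, with means of 876 ± 17.6 and 696 ± 52.9 (SD, n = 3 each). The log2 change was 0.33 ± 0.09 (limma adjusted p 0.0687), with an adjusted p of 0.0374 in DESeq2 and 0.0792 in edgeR. Adar, which edits adenosine to inosine in double-stranded RNA and so keeps the cell's own RNA from being sensed, had 2955, 3523 and 2883 normalized counts in LD-high libraries and 2924, 3268 and 2718 in LD-low libraries. The groups overlapped, and the log2 change of 0.07 ± 0.09 was smaller than its SE. Ddx58, which encodes RIG-I, had a log2 change of 0.05 ± 0.11, Trim25, its ubiquitin ligase, 0.07 ± 0.10, and Dhx58, which encodes LGP2, -0.14 ± 0.11. For the RNA-activated kinase gene Eif2ak2 the log2 change was -0.12 ± 0.15, and for the Z-form sensor gene Zbp1 it was -0.17 ± 0.28.

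Isg15 encodes a ubiquitin-like protein that is joined to other proteins, Herc6 the mouse ligase that joins it and Usp18 the protease that removes it, which also dampens signalling at the interferon receptor. Isg15 had 62.6, 102 and 86.8 normalized counts in LD-high libraries, against 96.8, 102 and 79.0 in LD-low libraries, which overlapped widely (log2 change -0.16 ± 0.24). Herc6, the highest of the 3, had 973, 971 and 825 in LD-high libraries and 956, 918 and 777 in LD-low libraries, a log2 change of 0.06 ± 0.11. Usp18 had a log2 change of -0.24 ± 0.13, and none of the 3 passed limma, edgeR or DESeq2 or had an unadjusted p under 0.05.

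Several of the remaining members were expressed at high levels with small changes. Lgals3bp, a secreted binding partner of galectins, had 8267, 9242 and 6986 normalized counts in LD-high libraries and 8518, 9383 and 7027 in LD-low libraries. The groups overlapped almost fully, with a log2 change of -0.02 ± 0.11. Bst2 (tetherin, which holds budding virions at the cell surface) had a log2 change of -0.13 ± 0.08 without overlap between groups, Sp100, a nuclear body protein, -0.24 ± 0.12, and Trim30a, one of a cluster of similar TRIM genes, -0.04 ± 0.08. Parp9, an ADP-ribosyltransferase family member that works with the ubiquitin ligase DTX3L, had 2127, 1984 and 2135 normalized counts in LD-high libraries and 2201, 2171 and 1834 in LD-low libraries. Its log2 change was 0.01 ± 0.08, that of Parp14 was -0.08 ± 0.10, and both groups overlapped for each gene. The exons of Parp9 overlap those of Dtx3l on the other strand, so the 2 cannot be fully separated. Dtx3l was counted at 3147, 3082 and 2909 normalized counts in LD-high libraries and 2530, 2599 and 2720 in LD-low libraries, without overlap (log2 change 0.22 ± 0.07, limma adjusted p 0.0982).

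Ifi35, a cytosolic interferon-induced leucine zipper protein, had 1219, 1220 and 1332 normalized counts in LD-high libraries, against 1363, 1498 and 1448 in LD-low libraries. The groups did not overlap, and the small log2 change of -0.19 ± 0.08 did not pass (limma adjusted p 0.208). Ifi27l2a, an interferon-induced gene of small hydrophobic proteins with a neighbouring copy on the same strand, had 58.1, 86.2 and 43.4 normalized counts in LD-high libraries, against 82.8, 160 and 98.5 in LD-low libraries. LD-high replicate 2 lay above LD-low replicate 1, and the log2 change was -0.85 ± 0.30 (limma adjusted p 0.134). Ifi44 had 8.94, 5.60 and 0 normalized counts in LD-high libraries, against 13.3, 13 and 21.4 in LD-low libraries, with 0 to 12 reads per LD-high library and 12 to 23 per LD-low library. Its log2 change of -2.03 ± 0.86 did not pass (limma adjusted p 0.208). The change was -1.49 with edgeR and -1.59 with DESeq2, and lay between -2.68 and -1.03 with 1 library left out. Ifi44 passed the filter through its LD-low values alone, which favours a value below 0. Xaf1, which antagonises the apoptosis inhibitor XIAP, had a log2 change of -0.11 ± 0.15, Rtp4 one of -0.04 ± 0.15 and Ifi27 one of 0.06 ± 0.11.

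Per length, the effector genes covered a wide range of levels. Lgals3bp stood highest, at 2868 normalized counts per kb of exon in LD-high and 2919 in LD-low libraries, followed by Bst2 at 1492 and 1632 and Ifi35 at 728 and 832. Near the low end stood Rsad2 at 12.6 per kb in LD-high and 30.7 in LD-low libraries, Oas2 at 8.29 and 16.1, Oas3 at 2.41 and 9.51 and Ifi44 at 0.792 and 2.60. Ifitm3 stood among the higher members, at 247 per kb in LD-high and 415 in LD-low libraries. Ifi27 had no length in the mm9 annotation used.

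Low members had the larger log2 changes. The 11 members with a mean under 100 normalized counts had a median log2 change of -0.85, and all genes tested at that level had one of -0.21. The 7 members between 100 and 300 had a median of -0.53, and all genes there -0.05. The 13 members between 300 and 1000 had a median of -0.14, and all genes -0.02. The 10 members above 1000 had a median of -0.03, and all genes 0.04. These level classes were chosen after the values were seen and were not tested, and low genes had the larger errors, with a median SE of 0.32 in the lowest class and 0.09 in the highest.

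**Figure D3:**
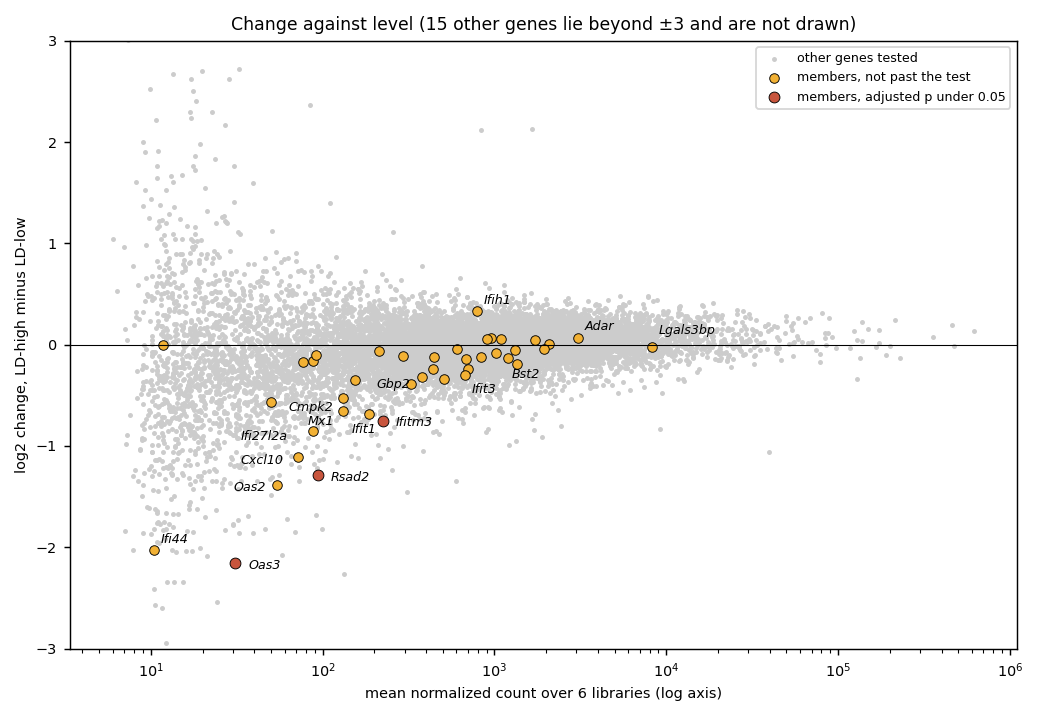
Log2 change, LD-high minus LD-low, against the mean normalized count over the 6 libraries (log axis) for the 41 effector genes and, in grey, the other genes tested. Members below a mean of 300 lie at or under 0, those above 1000 stay between -0.19 and 0.07, and the scatter of all genes also narrows towards high levels.

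The members did not move as a block across libraries. Within the LD-low group, replicate 2 had the highest value for 22 members, replicate 3 for 13 and replicate 1 for 6. LD-low replicate 3 had the lowest value of its group for 20 members, although within its group it held the most Rsad2, Ifitm3, Cxcl10, Mx1, Oas2 and Ifi44. Within the LD-high group, replicate 1 had the lowest value for 19 members. The mean over the 41 members on the log2 scale was 8.13, 8.16 and 8.09 in LD-high libraries 1, 2 and 3, against 8.47, 8.51 and 8.50 in LD-low libraries. The median over members of the difference from the LD-low mean of each gene was smaller, at -0.30, -0.13 and -0.16 in LD-high libraries 1, 2 and 3 and -0.04, 0.09 and -0.07 in LD-low libraries.

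**Figure D4:**
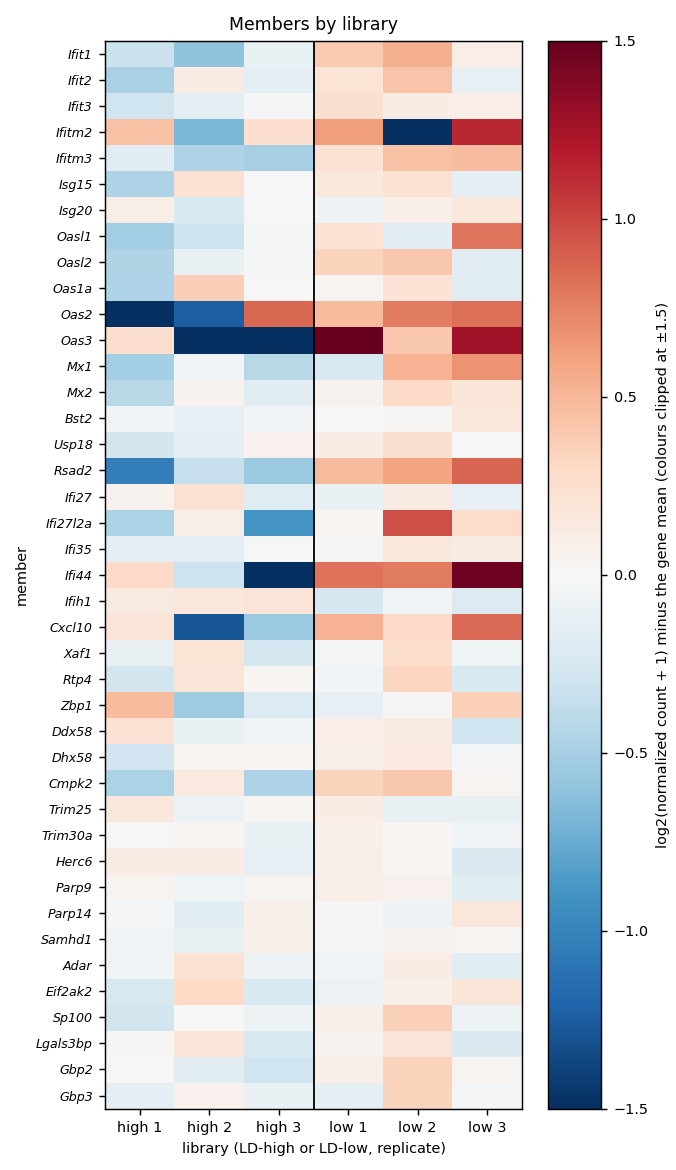
Values of the 41 effector genes in each library as log2(normalized count + 1) minus the mean of the gene over the 6 libraries, LD-high on the left and LD-low on the right, with colours ending at ±1.5. Rsad2, Oas3, Ifitm3 and Cxcl10 separate the groups, Oas2 is high in LD-high replicate 3, and rows such as Parp9, Trim30a and Samhd1 hardly vary.

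Transcripts of other cell types also differed between the fractions. Of 12 neutrophil markers, 8 were in the table and all 8 had 0 reads in the 3 LD-high libraries. Their summed level was 1236, 1590 and 4576 normalized counts in LD-low libraries 1, 2 and 3. The 6 that were tested passed the filter through their LD-low values alone, so that they could only be lower in LD-high libraries. The summed level of 8 monocyte markers was 116, 120 and 140 normalized counts in LD-high libraries, against 293, 382 and 707 in LD-low libraries, and the 1 of 3 tested that was called, Chil3, also had reads in LD-low libraries alone. Of these 8, 4 had 0 reads in all LD-high libraries. For 9 border-associated macrophage markers the summed level was 419, 275 and 170 in LD-high libraries, against 568, 385 and 261 in LD-low libraries. Limma, edgeR and DESeq2 called 0 of the 7 tested, and 2 were lower at an unadjusted p under 0.05, against 10.1% of all genes. Choroid plexus markers ran the other way, with 5592, 1719 and 5488 in LD-high libraries and 951, 366 and 1795 in LD-low libraries. Of the 5 tested, 3 rose (60%, against 1.53% of all genes). The summed level of 6 oligodendrocyte markers was 6013, 5452 and 5580 in LD-high libraries and 4894, 4641 and 4683 in LD-low libraries. Of the 5 tested, limma and edgeR called 0 and DESeq2 called 2 higher, and 3 were higher at an unadjusted p under 0.05. Over all genes, DESeq2 called 3.27% higher, and 9.68% were higher at that unadjusted p. The 12 microglia markers were all present, with a median log2 change of 0.00. Limma and edgeR called none of them, DESeq2 called 1 lower, and 1 was lower and 1 higher at an unadjusted p under 0.05. Neutrophils and monocytes express several of the 41 effector genes as well, and a gate on low CD45 is meant to leave both out. LD-low replicate 3 was the library richest in neutrophil and monocyte transcripts. Without it the log2 changes were -1.17 for Rsad2, -0.71 for Ifitm3 and -2.06 for Oas3, and none of the 3 passed. That fit cannot separate the cell types, since LD-low libraries 1 and 2 also held neutrophil markers, at 1236 and 1590 normalized counts. The part of other cells in the changes of the effector genes was not tested.

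Few genes upstream of the effectors passed the test. Of 10 interferon genes looked for, Ifnb1 alone was in the table, at 0.745, 2.24 and 0 normalized counts in LD-high libraries and 0, 3.25 and 1.86 in LD-low libraries. These are 3 reads or fewer per library, at or under the limit that a count of 0 allows, so no difference was detectable at this depth. Among the receptor genes, Ifnlr1, for type III interferon, had 0 reads in the 3 LD-high libraries, against 3, 5 and 10 reads in LD-low libraries, too few to be tested. Ifnar1 had 4788, 4660 and 4882 normalized counts in LD-high libraries and 5054, 5181 and 4584 in LD-low libraries. The log2 change was -0.05 ± 0.07 for Ifnar1 and -0.13 ± 0.07 for Ifnar2, and of the 5 receptor genes tested none passed with limma, edgeR or DESeq2 or had an unadjusted p under 0.05. Stat2 and Irf9, which take part in the complex that binds the ISRE, had log2 changes of -0.07 ± 0.08 and -0.04 ± 0.08, both with overlapping groups.

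Of 16 genes of interferon signalling, 1 fell (6.25%, against 1.82% of all genes) and 1 rose (6.25%, against 1.53%), with a median log2 change of -0.08. Log2 changes lay below 0 for 13 of the 16 (81.2%, against 51.3% of all genes). In 6 of the 16 (37.5%, against 11.7% of all genes) every LD-high value lay below every LD-low value. Irf7, itself an interferon-induced gene and the factor that amplifies interferon production, had 244, 207 and 331 normalized counts in LD-high libraries, against 356, 455 and 406 in LD-low libraries. The groups did not overlap, and Irf7 fell by 0.66 ± 0.17 (limma adjusted p 0.0457), a call kept in 2 of 6 fits that left out 1 library. Its adjusted p was 0.0994 and 0.129 in the fits that lacked LD-high replicate 1 or 2, and 0.182 and 0.158 in those that lacked LD-low replicate 2 or 3. With quantile normalization it was 0.0787. Jak1, the kinase shared by interferon and many cytokine receptors, had 14492, 13403 and 14441 normalized counts in LD-high libraries, against 12447, 11563 and 11279 in LD-low libraries. It rose by 0.26 ± 0.07 (limma adjusted p 0.0447), a call that edgeR did not make and that was kept in 1 of 6 fits without 1 library. Among 18 tested genes of nucleic acid sensing upstream of interferon, the median log2 change was -0.08. Limma and edgeR called 0, DESeq2 called 1 lower, and 5 were lower at an unadjusted p under 0.05 in limma. Over all genes, DESeq2 called 2.97% lower, and 10.1% were lower at that unadjusted p.

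A further 61 interferon-stimulated genes outside the 41 were tested, of which 2 fell (3.28%, against 1.82% of all genes) and 1 rose (1.64%, against 1.53% of all genes), with a median log2 change of -0.08. Iigp1, an immunity-related GTPase, had 16.4, 16.8 and 8.35 normalized counts in LD-high libraries, against 45.6, 55.2 and 52.0 in LD-low libraries, and fell by 1.86 ± 0.40 (limma adjusted p 0.0260). Ccl12, a chemokine gene, had 555, 443 and 583 normalized counts in LD-high libraries, against 726, 785 and 936 in LD-low libraries, and fell by 0.63 ± 0.13 (limma adjusted p 0.0182). Parp12 had 2577, 2643 and 2391 normalized counts in LD-high libraries, against 2165, 2101 and 1893 in LD-low libraries, and rose by 0.31 ± 0.08 (limma adjusted p 0.0442). The values of the groups did not overlap for any of the 3 genes. Leaving out 1 library kept the calls of Iigp1 and Ccl12 in 3 of 6 fits each and that of Parp12 in 1 of 6. The Parp12 call also ended with equal totals (adjusted p 0.0721) and quantile normalization (0.0755).

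RefSeq promoter windows of 300 bases, from 250 before to 50 after the start, were at hand for 30 of the 41 effector genes. The ISRE core occurred in 16 of the 30 (53.3%), in 23 of 53 further interferon-stimulated genes (43.4%) and in 1079 of all 27025 genes with such a window (3.99%). The gamma-activated site, searched as TTCNNNGAA, which reads the same on both strands, occurred in 9 of the 30 (30%) and in 9.55% of all genes, and it shared bases with an ISRE core in Bst2 and Ifitm3. Isg15 was the member with 3 cores in 1 window, at -78 to -69, -72 to -63 and -66 to -57, each overlapping the next. In 12 members at least 1 core lay before the start, and in Ddx58, Eif2ak2, Ifih1 and Ifitm3 all cores lay after it. The members without a window were Oas2, Mx1, Mx2, Usp18, Ifi27, Ifi27l2a, Rtp4, Zbp1, Dhx58, Parp9 and Parp14. A match describes the letters in the window and does not show that a factor binds there.

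**Figure D5:**
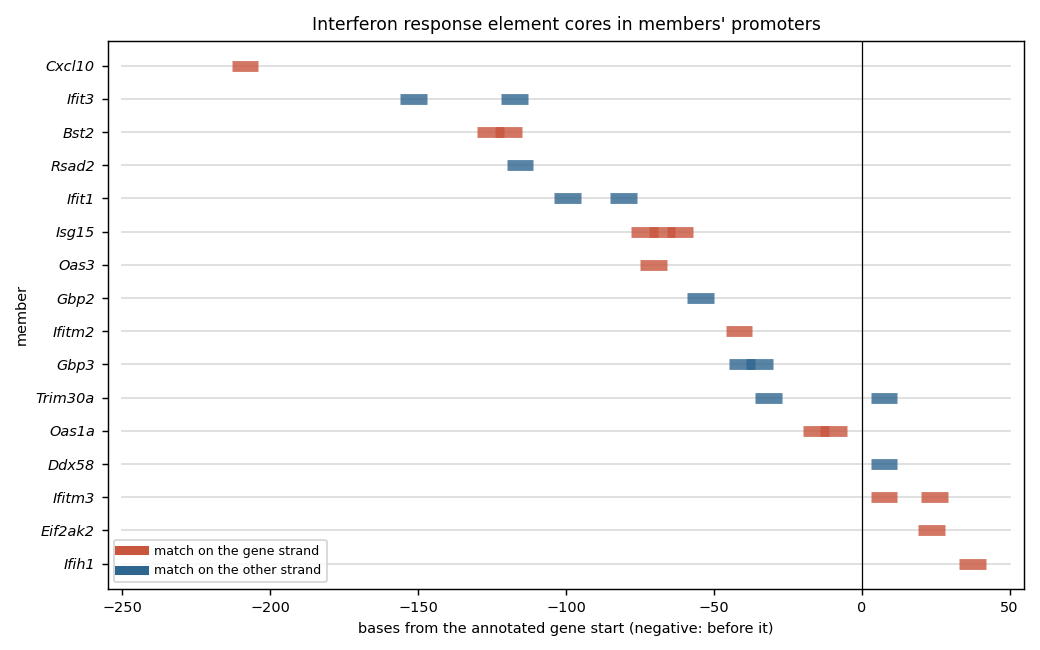
Positions of ISRE cores in the promoters of the 16 effector genes that hold one, in bases from the annotated start, red for matches on the strand of the gene and blue for the other strand. Most cores lie between the start and 130 bases before it, with that of Cxcl10 and 1 of 2 of Ifit3 farther out and those of Ifih1, Eif2ak2, Ifitm3 and Ddx58 after the start. Trim30a has 2 annotated starts drawn on 1 line, with a core at -36 to -27 from 1 and at 3 to 12 from the other.

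The 3 effector genes that fell were all among the 16 with an ISRE core, which is 18.8% of them, and 0 of the 14 with a window but no core passed. The median log2 change was -0.14 with a core and -0.15 without, and the lowest value without a core was that of Ifi44. For the 11 members without a window the median was -0.17. Over all tested genes with a window, 15 of 331 with a core fell (4.53%), against 143 of 8525 without one (1.68%). With the members left out, 12 of 315 with a core fell (3.81%), and the median log2 change was 0.00 both with and without a core. No test of these shares was made.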

How the data were processed

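The 41 genes, the pathway lists and the cell type markers were chosen with earlier results of these data known. RNA of sorted cells was amplified with a Smart-seq v4 kit and tagmented, per the labels' protocols, which does not mark strand. Per the submitters' processing notes, FastQC 0.11.4 served for quality control, STAR 2.5.1b for mapping to mm9 and counting, and DESeq2 for the authors' own test. Their annotation and gene filter: not given in the sources used here.

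Values were deposited as a signal, normalized counts per gene. All were whole reads divided by 1 size factor per library (100% whole within 0.01 reads, factors 0.599 to 1.43). A count of 0 allows up to 3 reads, or 2.11 to 5.01 normalized counts. Such limits cover counting error only. No column of other samples was present.

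Values were tested with limma 3.58.1 (R 4.3.3) with a variance trend on log2(value + 1), all 6 libraries, no block, 2-sided, Benjamini-Hochberg adjusted over all genes tested. The filter left out 2524 genes. The test was tested on simulated data in which the spread followed the mean and no low gene was changed. That simulation therefore cannot speak for low genes such as Oas3. Alternatives were pseudocounts 0.5 and 5, no filter or one of 50, TMM factors, equal totals, quantile normalization, no trend, edgeR 4.0.16 and DESeq2 1.42.0 on the recovered reads, the replicate number as a block and each library left out. Values in full were given for members that passed, the 12 with the smallest p and the highest of each role. Gene coordinates and exon lengths are from GENCODE vM1 (mm9), which matched 40 of 41 symbols, and promoters from RefSeq (GRCm38.p6).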

Additional observations from a re-analysis of the deposited data

How the results depend on the processing

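The median log2 change of the members tested kept its sign under all 17 alternatives, between -0.24 and -0.12. The members tested were 41, and 37 with the filter of 50. The count of members that fell, 3, lay between 2 and 4 under the other pseudocounts, filters, scalings and both count tests. Wherever it was 2 in these, Oas3 was the gene lost, and with the filter of 50 Oas3 was not tested. The count was 0 without the trend, and ranged from 0 to 4 with 1 library left out. DESeq2 called 1 member higher. Members whose groups did not overlap, lower, ranged from 12 to 18 (29.3% to 43.9%) with 1 library left out, where 15.8% to 18.5% of all genes did so. Of the further interferon-stimulated genes 1 fell with the filter of 50, where Iigp1 was not tested, 0 without the trend, and 0 to 2 with 1 library left out. With DESeq2, 3 of them fell and 3 rose, and 0 to 1 rose with 1 library left out. Over all genes, 390 were called, 252 with quantile normalization, 15 without the trend, 725 with DESeq2 and 52 to 421 with 1 library left out. With the replicate number as a block 1090 genes were called, 530 lower and 560 higher. The 7 members that then fell were Ifit1, Ifitm3, Oas2, Oas3, Rsad2, Ifi27l2a and Cxcl10, and the 1 that rose was Ifih1. Of the further genes, 5 fell and 4 rose with the block. Deviations of same-numbered libraries correlated at 0.161, 0.132 and 0.0641 across 11624 genes, and other pairs at -0.127 to -0.0171. Each library thus correlated best with its own number, a hint from the data. The sample titles number both fractions alike, but nothing says whether same-numbered samples came from the same pool of mice. Genes that had not passed changed sign: Parp9 had -0.03 with equal totals and -0.02 with quantile normalization. With 1 library left out, log2 changes ranged from -0.07 to 0.06 for Parp9, -0.02 to 0.14 for Adar, -0.22 to 0.02 for Gbp3, -0.03 to 0.14 for Herc6 and -0.14 to 0.08 for Lgals3bp. Wider ranges across 0 were -0.88 to 0.56 for Ifitm2, -0.45 to 0.06 for Zbp1, -0.32 to 0.03 for Isg15 and -0.25 to 0.16 for Oas1a. Rtp4, Ifi27 and Ddx58 changed sign as well. The cause of these shifts was not tested. Depth limits Oas2, Oas3, Oasl1, Ifi44, Ifitm2, Iigp1 and Ifnb1, with under 100 reads in every library.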
